A study of Mus musculus with 6 samples.

Results

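Il12a and 9 other cytokine genes that B cells can express were compared between myosin IIa-deficient and haploinsufficient follicular B cells. The set holds 10 of the 20458 gene names in the deposited table: Il12a, Il12b, Ebi3 and Il23a, which encode subunits of the IL-12 family, Il10, Il6 and Tgfb1, and the TNF family genes Tnf, Lta and Ltb. The genes were selected on the measured levels of both genotypes, with earlier results of these data known and with Il12a as the lead, so their levels and differences are given here as a description. RNA was sequenced from B220+AA4.1-CD23+CD21lo cells of C57BL/6 mice, with 3 samples of CD23Cre+Myh9fl/wt (wt/fl) and 3 of CD23Cre+Myh9fl/fl (fl/fl) animals. All animals carried CD23Cre, a transgene that expresses Cre recombinase from the CD23 promoter, which is active from the transitional stage of splenic B cell maturation onward. Cre removes the LoxP-flanked exon of Myh9, the myosin IIa heavy chain gene, from 1 allele in wt/fl cells and from both alleles in fl/fl cells. The comparison group was therefore haploinsufficient, no group with intact Myh9 alleles alone was analysed here, and the labels give no age, sex or tissue. The table gives 1 pooled value per gene entry and genotype, in FPKM, a fragment count scaled to transcript length and to the mapped fragments of the library, so these values carry no spread between samples and were not tested here.

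Subunits of the IL-12 family combine in pairs. The p35 subunit, encoded by Il12a, forms IL-12 with the p40 subunit encoded by Il12b, and forms IL-35 with the subunit encoded by Ebi3. IL-23 consists of the product of Il23a with p40, and IL-27 consists of the product of Il27 with that of Ebi3. IL-12 favors interferon-producing T cell responses, whereas IL-35 and IL-10 are known for the suppressive activity of regulatory B cells. Lymphotoxin and TNF from B cells maintain follicular dendritic cells and the follicle itself. IL-6 supports helper T cells and plasma cells, and TGF-beta 1 limits lymphocyte responses and directs class switching to IgA.

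Il12a has alternative starts, and these matter for its values because the table splits the gene into 2 entries. The GENCODE M21 annotation of build GRCm38 holds 2 coding transcripts of Il12a on chromosome 3. The first starts at 68690644, has 8 exons and encodes 236 residues. The second starts inside the first intron of the other, at 68691424, has 7 exons and encodes 215 residues from a start codon at 68691551. They share 1201 exonic bases, or 92.2% of the first and 94.7% of the second, and only 102 and 67 bases belong to one alone. The deposited table does not say which of its entries is which transcript, and with so few distinguishing bases the split of fragments between the entries is an estimate of the authors' software. RefSeq windows before the start (build GRCm38.p6) matched 8 of the 10 genes, with 9 windows in all, since both starts of Il12a have their own, and the others were Il10 and Il23a. The 250 bases before each start of Il12a, which lie 780 bases apart, and those before the start of Tnf are shown. Of the 10 genes, Il12a and Tnf had the highest log2 ratios of fl/fl over wt/fl, with 1 added to each FPKM. Capitals mark a match, on either strand, to the NF-kB consensus motif, to TGANTCA or to TATAAA.
Il12a, first start, chr3:68690394-68690643, plus strand: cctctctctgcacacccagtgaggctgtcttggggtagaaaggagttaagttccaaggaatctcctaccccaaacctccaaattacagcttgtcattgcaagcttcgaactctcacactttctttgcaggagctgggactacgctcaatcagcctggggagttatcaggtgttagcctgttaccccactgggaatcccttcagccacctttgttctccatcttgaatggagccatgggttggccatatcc
Il12a, second start, chr3:68691174-68691423, plus strand: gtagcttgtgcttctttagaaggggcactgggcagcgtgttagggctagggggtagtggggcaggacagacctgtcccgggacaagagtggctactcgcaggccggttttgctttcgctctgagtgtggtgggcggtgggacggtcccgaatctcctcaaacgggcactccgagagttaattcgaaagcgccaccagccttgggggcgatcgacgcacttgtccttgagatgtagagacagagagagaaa
Tnf, chr17:35202008-35202257, minus strand: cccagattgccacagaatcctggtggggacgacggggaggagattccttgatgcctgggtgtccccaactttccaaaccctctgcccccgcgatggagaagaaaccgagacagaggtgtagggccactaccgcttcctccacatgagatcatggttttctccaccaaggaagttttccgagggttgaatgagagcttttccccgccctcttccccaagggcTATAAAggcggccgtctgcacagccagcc

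Neither window of Il12a held any of these motifs. Tnf had TATAAA 29 bases before its start. Among the 9 windows, 4 held the NF-kB consensus, those of Ebi3, Il6, Tgfb1 and Ltb, against 7.25% of 32851 windows of the same length. Another NF-kB-like pattern of the same length, searched first and before the consensus was chosen, gave matches in 5 windows, the second of Il12a being the additional one, against 17.6% of all windows. TATAAA was found in 2, those of Tnf and Lta, against 12.4%, and TGANTCA, an AP-1 pattern, in 1, that of Il6, against 6.75%. Under the consensus, the windows of Il12a, Tnf and Lta held no match, and a match is only a match of letters.

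Myh9 itself was at 50.6 FPKM in haploinsufficient and 21.1 FPKM in myosin IIa-deficient cells, 41.7% of the haploinsufficient level. The 10 listed markers of B cells and follicular B cells were all present, with Cd79b and Cd79a among the most abundant, and 0 of the 10 differed by 1.5-fold. Fcer2a, which encodes CD23 and was used in the sort, was at 439 FPKM in haploinsufficient and 588 FPKM in myosin IIa-deficient cells.

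Of the 10 cytokine genes, 6 averaged at least 1 FPKM over the genotypes, namely Ltb, Lta, Tgfb1, Il12a, Tnf and Ebi3. The other 4, Il12b, Il23a, Il10 and Il6, were close to 0 in both genotypes. Differences were expressed as the log2 ratio of fl/fl over wt/fl after adding 1 to each FPKM, which understates the change of low genes. Of the 6 genes above the filter, 3 were at least 1.5-fold higher in fl/fl cells (Il12a, Tnf and Lta) and 0 were at least 1.5-fold lower. Among all 9866 genes averaging at least 1 FPKM, 0.791% were at least 1.5-fold higher and 1.53% were at least 1.5-fold lower. Because the genes were picked with these values in view, nothing is read from this difference in shares. The 6 genes had a median log2 ratio of 0.46, beside 0.0026 over all 9866 genes.

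**Figure D1:**
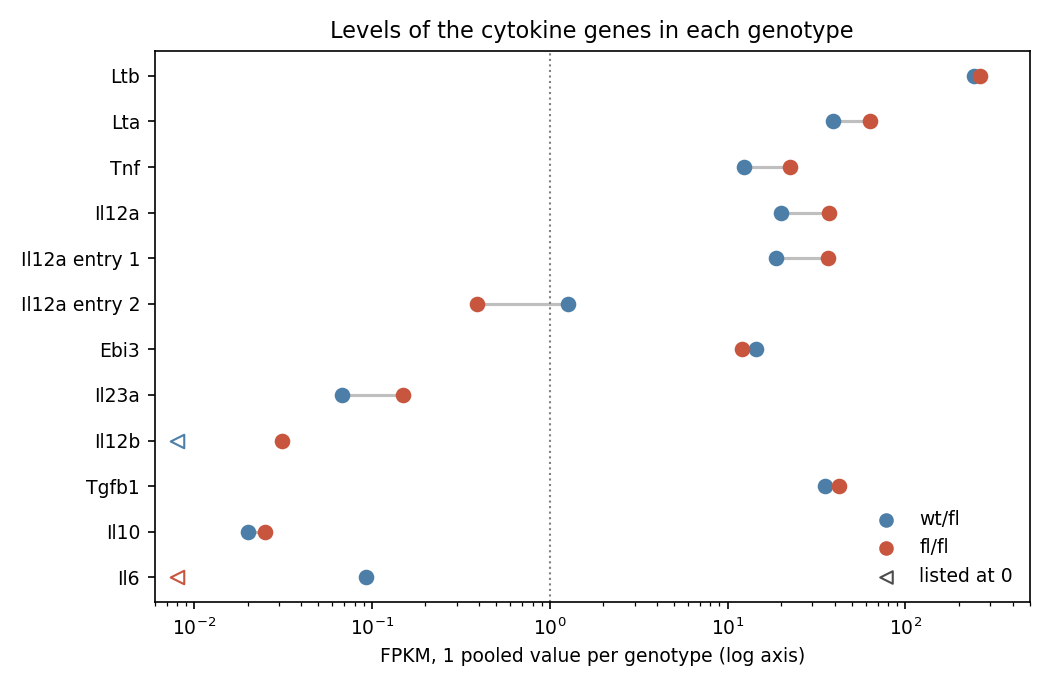
Pooled FPKM of each cytokine gene (log axis) in wt/fl (blue) and fl/fl (red) follicular B cells, with the 2 entries of Il12a under their sum. Open triangles at the left edge mark genes listed at 0, and the dotted line marks 1 FPKM. Ltb was the most abundant gene in both genotypes, Il12a, Tnf and Lta were higher in fl/fl cells, and the second entry of Il12a was lower.

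Among the IL-12 family subunits, Il12a stood at 19.9 FPKM in haploinsufficient and at 37.2 FPKM in myosin IIa-deficient cells, with its 2 entries summed. This was a 1.87-fold higher level. With 1 added to each FPKM, the log2 ratio was 0.87, the 24th highest of 9866 genes. Ranks here and below were taken only with 1 added, which understates the change of low genes. The level of Il12a exceeded that of 81.5% of all gene names in wt/fl and of 90.0% in fl/fl cells. Both entries lie at chromosome 3 from 68494565 to 68502469 in the positions of the table, which are those of build mm9.

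The entries of Il12a went in opposite directions. The major entry was at 18.7 FPKM in haploinsufficient and 36.8 FPKM in myosin IIa-deficient cells, a log2 ratio of 0.94. The minor entry was at 1.26 FPKM in haploinsufficient and 0.392 FPKM in myosin IIa-deficient cells, a log2 ratio of −0.70. The minor entry thus made up 6.33% of the Il12a level in haploinsufficient cells and 1.05% in myosin IIa-deficient cells. Both of its values are low, and the summed value followed the major entry.

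Of the genes for the partners of p35, Ebi3 did not follow Il12a, and Il12b was too low to compare. Ebi3, the partner in IL-35, was at 14.5 FPKM in haploinsufficient and 12.1 FPKM in myosin IIa-deficient cells, a log2 ratio of −0.25. The level of Il12a was 1.37 times that of Ebi3 in haploinsufficient cells and 3.08 times that of Ebi3 in myosin IIa-deficient cells, both per transcript length. Il12b, which encodes the p40 partner in IL-12, was listed at 0 in haploinsufficient and at 0.0313 FPKM in myosin IIa-deficient cells. No ratio to Il12b was formed in wt/fl cells, and at this level the ratios in fl/fl cells are not meaningful. Il23a, whose product also needs p40, was at 0.0681 FPKM in haploinsufficient and 0.150 FPKM in myosin IIa-deficient cells. Il27, not one of the 10 genes but the other partner of the Ebi3 product, was listed at 0 in haploinsufficient and at 0.0564 FPKM in myosin IIa-deficient cells. Transcripts for the p35 and Ebi3 subunits were therefore present in both genotypes, while those for p40, the Il23a product and the Il27 product were at or near 0.

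**Figure D2:**
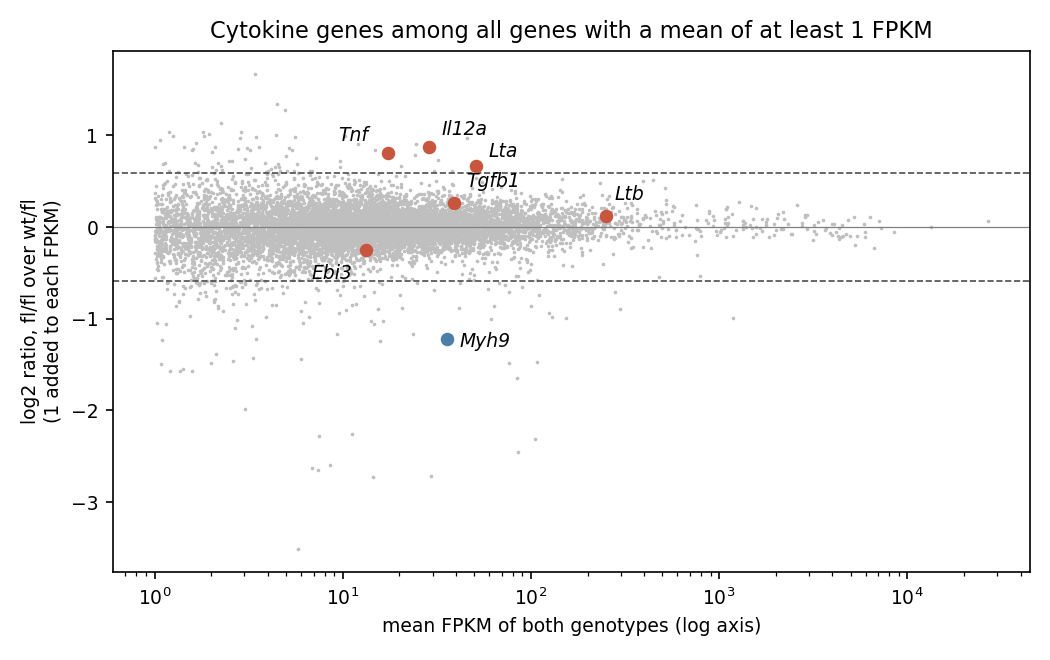
Log2 ratio of fl/fl over wt/fl (1 added to each FPKM) against mean FPKM (log axis) for the 9866 genes averaging at least 1 FPKM (gray). The 6 cytokine genes above that filter are red, Myh9 is blue, and dashed lines mark a 1.5-fold difference. Il12a, Tnf and Lta lie above the upper line at 0.87, 0.80 and 0.67, and Ltb, Tgfb1 and Ebi3 lie between the lines.

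The TNF family genes of the set encode the ligands TNF, lymphotoxin alpha and lymphotoxin beta. Lymphotoxin alpha is secreted as a trimer or is held at the membrane in a complex with lymphotoxin beta, which is the form that signals to stromal cells of the follicle. Ltb was the highest of the 10 genes, with 242 FPKM in haploinsufficient and 262 FPKM in myosin IIa-deficient cells, a log2 ratio of 0.12. Lta was at 39.2 FPKM in haploinsufficient and 62.9 FPKM in myosin IIa-deficient cells, a log2 ratio of 0.67 and the 53rd highest of 9866 genes. Tnf was at 12.4 FPKM in haploinsufficient and 22.3 FPKM in myosin IIa-deficient cells, a 1.81-fold higher level with a log2 ratio of 0.80 and the 36th highest of 9866 genes. The level of Tnf relative to Lta was 0.315 in wt/fl and 0.355 in fl/fl cells. That of Lta relative to Ltb was 0.162 in wt/fl and 0.240 in fl/fl cells. These last ratios were chosen after their values were seen. Ltb accounted for 66.5% of the summed FPKM of the 10 genes in haploinsufficient cells and for 59.7% in myosin IIa-deficient cells, as the sum went from 363 to 439 FPKM.

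Of the remaining genes, Tgfb1 was at 35.4 FPKM in haploinsufficient and 42.5 FPKM in myosin IIa-deficient cells, a log2 ratio of 0.26. Il10 was at 0.0201 FPKM in haploinsufficient and 0.0250 FPKM in myosin IIa-deficient cells. Il6 was at 0.0926 FPKM in wt/fl and was listed at 0 in fl/fl cells. Transcripts of Il10 and Il6, known for regulatory and for helper functions of stimulated B cells, were thus at or near 0 in both genotypes of these unstimulated cells. At such levels their log2 ratios are not meaningful. None of 12 abundant housekeeping genes, such as Actb and B2m, was listed at 0.

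In order of level, the haploinsufficient cells had Ltb, Lta, Tgfb1, Il12a, Ebi3 and Tnf, and the myosin IIa-deficient cells had Ltb, Lta, Tgfb1, Il12a, Tnf and Ebi3. The order differed between the genotypes in the exchange of Tnf and Ebi3. Without a spread between samples it cannot be said which neighbors in this order differ.

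Tnf, Lta and Ltb lie side by side in the major histocompatibility complex on chromosome 17, Ltb from 35331451 to 35333250, Tnf from 35336335 to 35338941 and Lta from 35340109 to 35342296 (mm9). The gaps to Tnf were 3085 bases for Ltb and 1168 bases for Lta, and no locus of the table overlapped another at these genes. Of 65 other genes within 500 kb of Tnf, 39 averaged at least 1 FPKM, and their median log2 ratio was −0.097. At least 1.5-fold higher were 2 of them, Aif1 (1.46 and 2.80 FPKM, log2 ratio 0.63) and the heat shock protein gene Hspa1l (0.854 and 1.82, log2 ratio 0.60). At least 1.5-fold lower were 2 others, Hspa1b (3.76 and 2.04, log2 ratio −0.65) and Tcf19 (2.12 and 0.980, log2 ratio −0.66). Hspa1b has a near-identical copy beside it, so its values are uncertain. The nearest gene above the filter on the side of Ltb, Lst1, had a log2 ratio of −0.33, and Nfkbil1 beyond Lta had 0.43. With 1 added to each FPKM, the highest log2 ratios at this locus were those of Tnf and Lta, followed by Aif1 and Hspa1l. This order rests on the added 1, which understates the change of low genes such as Aif1 and Hspa1l. Without it, the FPKM of Hspa1l and Aif1 rose by larger factors than those of Tnf and Lta. Ltb and most flanking genes stayed within 1.5-fold. Around Il12a, 4 of 9 other genes within 500 kb averaged at least 1 FPKM (Ift80, Smc4, Trim59 and Kpna4), and their log2 ratios lay between −0.13 and 0.12.

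**Figure D3:**
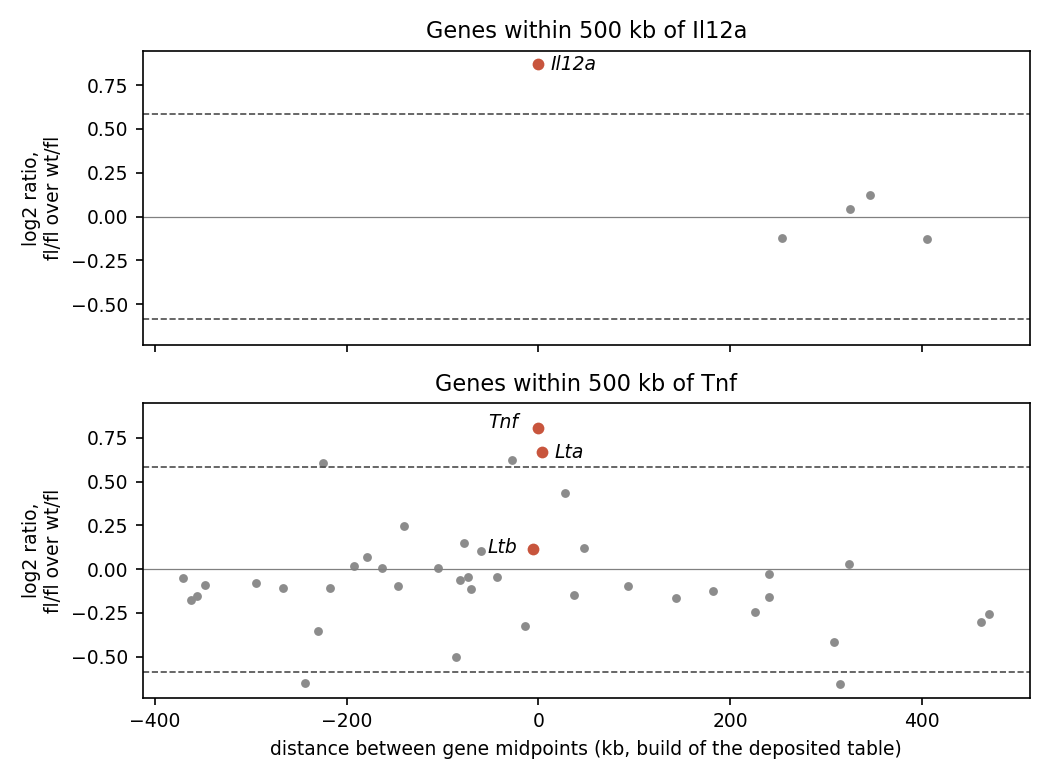
Log2 ratio of fl/fl over wt/fl (1 added to each FPKM) for genes averaging at least 1 FPKM, by the distance of their midpoint from that of Il12a (top) or Tnf (bottom) in kb. Red points are the cytokine genes, gray points the other genes, and dashed lines mark a 1.5-fold difference. The 4 genes near Il12a lie close to 0, and near Tnf only Lta, Aif1 and Hspa1l also lie above the upper line.

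The genes most like Il12a were sought among the 1221 others whose mean FPKM was within 0.32 of its own on the log2 scale, over the 2 pooled values. The 5 with the closest log2 ratio were Pcp4 (20.5 and 37.7 FPKM, haploinsufficient value first), Hrsp12 (16.8 and 32.2), Slc14a1 (17.5 and 30.9), Slamf1 (23.8 and 40.3) and Pafah1b3 (23.9 and 37.1). Their log2 ratios were 0.85, 0.90, 0.79, 0.73 and 0.61. Among these, Slamf1 encodes a receptor of the SLAM family on lymphocytes.

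Receptors for the cytokines were measured in the same cells. Of 8 receptor genes for the IL-12 family, IL-10 and IL-6, 6 averaged at least 1 FPKM, and 0 were 1.5-fold higher or lower. Their log2 ratios lay between −0.52 and 0.06, with a median of −0.17. Il10ra, the ligand-binding chain of the IL-10 receptor, was at 59.1 FPKM in haploinsufficient and 40.9 FPKM in myosin IIa-deficient cells, a log2 ratio of −0.52. Il10rb, its second chain, was at 32.2 and 31.4 FPKM, and Il27ra, a receptor chain for IL-27, at 21.7 and 22.7 FPKM. Il6st, which encodes the shared signal transducer gp130, was at 6.11 FPKM in haploinsufficient and 4.02 FPKM in myosin IIa-deficient cells, a log2 ratio of −0.50. Il12rb2, the chain shared by the receptors of IL-12 and IL-35, was at 1.72 and 1.54 FPKM. Of the 4 receptor genes for TNF and lymphotoxins, 2 were above the filter, Tnfrsf1b (5.71 and 3.67 FPKM, log2 ratio −0.52) and Tnfrsf14 (4.31 and 3.62 FPKM, log2 ratio −0.20). The receptors Tnfrsf1a and Ltbr were at most at 0.444 FPKM in either genotype. With 0.1 in place of 1 added to each FPKM, Il10ra did not reach 1.5-fold either, but 1 gene of each receptor list was 1.5-fold lower, Il6st and Tnfrsf1b.

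The pathway of TGF-beta 1 was represented by 15 genes, of which 6 averaged at least 1 FPKM. Their median log2 ratio was −0.12. Tgfb3, which encodes another TGF-beta isoform, was the only 1 of these at least 1.5-fold higher, at 1.41 FPKM in haploinsufficient and 2.92 FPKM in myosin IIa-deficient cells, and 0 were 1.5-fold lower. Tgfbr2, the ligand-binding receptor, was at 75.3 and 69.6 FPKM. Lrrc33, also called Nrros, which tethers latent TGF-beta 1 to the cell surface, was at 74.3 and 54.8 FPKM, a log2 ratio of −0.43, and Tgfbr1, the signaling receptor, was at 14.1 and 10.8 FPKM.

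Of 41 other cytokine and chemokine genes, 11 averaged at least 1 FPKM, with a median log2 ratio of −0.079, and 8 were listed at 0 in both genotypes. Il18, which encodes a cytokine of the IL-1 family, was the only 1 at least 1.5-fold higher, at 4.13 FPKM in haploinsufficient and 7.25 FPKM in myosin IIa-deficient cells. At least 1.5-fold lower were 3 genes, Ccl5 (30.2 and 19.5 FPKM, log2 ratio −0.61), Il1b (3.50 and 1.89 FPKM, log2 ratio −0.64) and Ccl3 (1.74 and 0.325 FPKM, log2 ratio −1.05). The most abundant of the list, Il16, was at 50.2 and 45.5 FPKM, and Il24 was at 6.41 and 7.02 FPKM. Il15, at 0.705 and 1.33 FPKM, was under 1.5-fold with 1 added to each FPKM but past it with 0.5 or 0.1 added. The higher levels of Il12a, Tnf and Lta were thus not shared by most of these 11 genes. The other 30 fell under the filter and were not compared.

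Other cells can make these cytokines, so markers of such cells were compared. All 8 neutrophil markers above the filter were lower in fl/fl cells, 7 of them by at least 1.5-fold, and the sum over the 12 listed genes was 381 FPKM in haploinsufficient and 68.4 FPKM in myosin IIa-deficient cells. S100a9 was the highest, at 175 and 34.5 FPKM, and 2 of the 12 were listed at 0 in fl/fl cells. The 14 macrophage and dendritic cell markers summed to 88.8 FPKM in haploinsufficient and 57.7 FPKM in myosin IIa-deficient cells, with Lyz2 at 72.6 and 44.9 FPKM, and 0 were listed at 0. The 13 T cell and NK cell markers summed to 39.1 FPKM in haploinsufficient and 32.2 FPKM in myosin IIa-deficient cells, with Lck at 14.5 FPKM in both, Nkg7 at 9.01 and 5.33 FPKM and Cd3e at 1.83 and 1.96 FPKM. In these lists 0 genes were at least 1.5-fold higher in fl/fl cells. The lower levels of these markers thus went in the opposite direction to those of Il12a, Tnf and Lta and in the same direction as those of Ccl5, Il1b and Ccl3. Their part in either result was not tested, and in bulk RNA fewer cells of a type and less RNA per cell cannot be told apart.

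**Figure D4:**
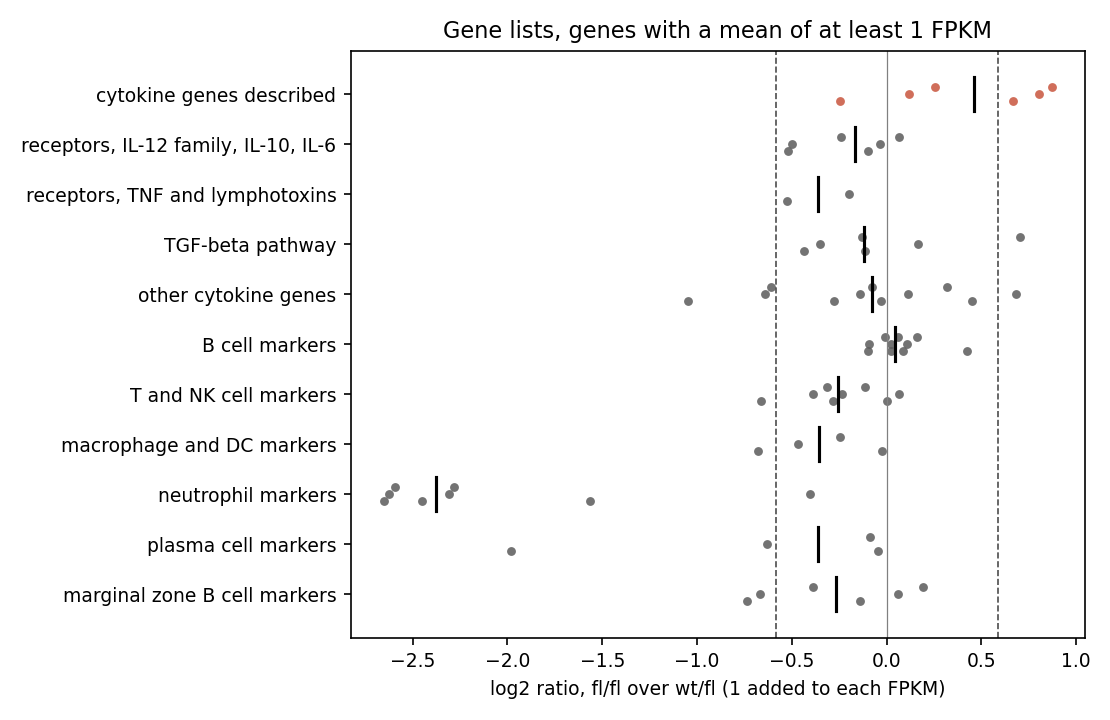
Log2 ratio of fl/fl over wt/fl (1 added to each FPKM) for the genes of each list averaging at least 1 FPKM. Each point is a gene, black bars are medians and dashed lines mark a 1.5-fold difference. The cytokine genes (red) reach 0.87, the receptor lists lie between −0.52 and 0.06, and the neutrophil markers have a median of −2.38.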

How the data were processed

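The data were 6 samples of sorted follicular B cells, 3 per genotype, in 1 table in the layout of Cuffdiff. RNA was amplified before library preparation. Per the labels, the authors used Bowtie, TopHat and Cufflinks, with versions not given in the sources used here. The authors' deposited FPKM values are pooled over the samples of a genotype, with an entry for each coding sequence (25017 entries). The columns of the authors' own comparison (fold change, test statistic, p-value, q-value and call) were not used. The labels name mm10, but 0 of the 10 genes start where RefSeq places them on GRCm38, so positions were read as mm9 and not converted. On sequences with the word random in their names lie 118 entries, a count that does not separate the builds.

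FPKM was summed per gene name, leaving out 44 entries whose symbol had become a date. The 9866 genes averaging at least 1 FPKM were compared by log2 ratio with a pseudocount of 1 and a 1.5-fold limit. Read depth per sample is unknown. Of low values, 29.6% (wt/fl) and 36.4% (fl/fl) lay within 0.1 of a whole multiple of the value estimated for 1 fragment. Because the values are pooled over samples, these shares could not give a depth. The 10 genes and all lists were chosen with earlier results of these data known. Named were the 10 genes, Il27, Myh9, in each list the 3 highest genes and those past 1.5-fold, genes within 500 kb of Il12a or Tnf (summarized where many), and the 5 genes most like Il12a. One gene that this rule names is not reported here. Other genes, such as single receptors or markers, were named after their values were seen. Computations used Python 3.11.15, numpy and pandas and were tested on simulated data.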

Additional observations from a re-analysis of the deposited data

How the results depend on the processing

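Alternatives were other pseudocounts, upper quartile and median ratio scaling, the highest entry of each gene in place of the sum, other filters and other folds. Under the pseudocounts, the scalings and the highest entry the log2 ratio stayed between 0.87 and 0.94 for Il12a, 0.80 and 0.85 for Tnf and 0.67 and 0.68 for Lta. A value was taken as moved beyond 0.1 on the log2 scale, or beyond 1.5-fold for a count. At a fold of 2, 0 cytokine genes were higher. Log2 ratios moved for genes near 0: at a pseudocount of 0.1 they were 0.39 for Il12b, 0.57 for Il23a and −0.95 for Il6, and at 0.5 −0.25 for Il6. At a pseudocount of 0.1, 1 receptor gene of the IL-12 family, IL-10 and IL-6 list and 1 of the TNF list were lower, and at 0.1 and 0.5, 2 other cytokine genes were higher. At a mean of at least 5 FPKM, 0 TGF-beta genes were higher and 1 other cytokine gene was lower. At a log2 limit of 0.32 in place of a 1.5-fold, 2 receptor genes of the IL-12 family, IL-10 and IL-6 list, 1 of the TNF list and 2 TGF-beta genes were lower and 2 other cytokine genes were higher. At a fold of 2, 0 TGF-beta genes and 0 other cytokine genes were higher and 1 other cytokine gene was lower.

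Over all genes, 78 were higher and 151 lower. These counts became 158 and 256 at a pseudocount of 0.1, 26 and 67 at a mean of at least 5 FPKM, 454 and 541 at a log2 limit of 0.32, and 9 and 40 at a fold of 2. No paired analysis was possible because each genotype has 1 pooled value, and for the same reason no replicate was left out.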

Other observations

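Markers associated with regulatory B cells were compared as a further list. Of 13 genes, 8 averaged at least 1 FPKM, 6 with lower and 2 with higher values in fl/fl cells, and a median log2 ratio of −0.11. Of these 8, 0 were at least 1.5-fold higher and 1 was at least 1.5-fold lower. This was Cd9, at 4.61 FPKM in haploinsufficient and 2.52 FPKM in myosin IIa-deficient cells. Bhlhe40, at 25.7 and 17.2 FPKM with a log2 ratio of −0.56, was just within 1.5-fold. Cd24a was at 317 and 303 FPKM, Cd38 at 155 and 138 FPKM, and Irf4 at 60.8 and 58.9 FPKM. Cd1d1, which encodes an antigen-presenting molecule abundant on marginal zone and regulatory B cells, was at 15.1 and 15.7 FPKM.

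Of 6 plasma cell markers, 4 averaged at least 1 FPKM and all 4 had lower values in fl/fl cells, 2 of them by at least 1.5-fold. These were Igj, which encodes the joining chain of secreted antibodies (5.40 and 0.617 FPKM), and Sdc1, which encodes CD138 (2.30 and 1.13 FPKM). Xbp1 was at 48.8 and 45.9 FPKM. Of 7 marginal zone B cell markers, 6 were above the filter, 4 with lower and 2 with higher values in fl/fl cells. At least 1.5-fold lower were 2, Plac8 (138 and 82.1 FPKM) and Cd9, while Dtx1 was at 27.3 and 20.6 FPKM. The higher values were those of S1pr3 (2.35 and 2.83 FPKM) and Cd1d1 (15.1 and 15.7 FPKM), both within 1.5-fold.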
